A study of Homo sapiens with 6 samples.

Results

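The regions with ENO1 peaks were set against those with HDAC1 peaks in the human liver cancer cell line HepG2. The method was CUT&Tag, where a transposase tethered to an antibody cuts and tags the DNA around the antibody's target. The ENO1 group held 2 libraries and the HDAC1 group 2 libraries. The series holds 6 libraries, the other 2 made with an antibody to H4K12la, histone H4 lactylated at lysine 12. The labels give no treatment or genetic change for any group, so both targets were mapped in cells described in the same words, and they do not say whether replicates were separate cultures. The result is therefore that of 1 cancer cell line. The design text sets the 2 proteins together as a pair that acts on histone lactylation and asks how this bears on transcription.

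A region counted for a target when peaks of both of its replicates overlapped by 1 bp or more on chromosomes 1 to 22, X or Y. This gave 768 ENO1 regions and 3089 HDAC1 regions. Merged with each other, they formed 3213 regions, of 5517 in the whole series: 637 were shared by ENO1 and HDAC1, 130 belonged to ENO1 only and 2446 to HDAC1 only. The ENO1 libraries contributed 1592 and 1189 peaks, and the HDAC1 libraries 5727 and 4567 peaks. Depth is unknown because the files hold no read counts, so a missing peak is not a missing signal.

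ENO1 encodes alpha-enolase, the glycolytic enzyme that makes phosphoenolpyruvate and is found mainly in the cytoplasm. HDAC1 is a nuclear lysine deacetylase that works within the Sin3, NuRD and CoREST complexes, is found at many active promoters, and can also remove lactyl groups from histones. Glycolysis is the source of lactate, from which histone lactylation is made.

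The promoters below show how the targets met or parted at gene starts. They are RefSeq sequences of GRCh38.p14, from 250 bases before to 50 after the start of the gene, 5′ to 3′ on the gene's strand. In the first 3, the capitals mark the bases covered by ENO1 peaks of both replicates, and these are all the genes with such a promoter window among 27305 genes. FAM27E4 and FAM230E are long non-coding RNA genes whose windows also held HDAC1 peaks of both replicates. TAF11L3 is a protein-coding relative of the TFIID subunit gene TAF11, and its window held an HDAC1 peak of replicate 1 only. In the last 2, the capitals mark the bases covered by HDAC1 peaks of both replicates, and neither window held an ENO1 peak. They are ENO1's own promoter and that of NT5C3A, a pyrimidine nucleotidase gene, which led the protein-coding promoter windows without ENO1 when ranked by the lower HDAC1 fold of both replicates (9.71).
FAM27E4, chr9:61856455-61856754, plus strand: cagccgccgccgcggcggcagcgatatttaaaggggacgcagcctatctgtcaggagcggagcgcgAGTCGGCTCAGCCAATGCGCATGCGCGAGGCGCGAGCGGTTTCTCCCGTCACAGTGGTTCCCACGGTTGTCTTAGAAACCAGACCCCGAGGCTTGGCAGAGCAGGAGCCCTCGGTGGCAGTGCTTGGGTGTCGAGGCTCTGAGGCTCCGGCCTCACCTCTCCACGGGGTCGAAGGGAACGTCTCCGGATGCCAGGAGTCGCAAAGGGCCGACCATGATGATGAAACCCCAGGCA
FAM230E, chr22:18733685-18733984, plus strand: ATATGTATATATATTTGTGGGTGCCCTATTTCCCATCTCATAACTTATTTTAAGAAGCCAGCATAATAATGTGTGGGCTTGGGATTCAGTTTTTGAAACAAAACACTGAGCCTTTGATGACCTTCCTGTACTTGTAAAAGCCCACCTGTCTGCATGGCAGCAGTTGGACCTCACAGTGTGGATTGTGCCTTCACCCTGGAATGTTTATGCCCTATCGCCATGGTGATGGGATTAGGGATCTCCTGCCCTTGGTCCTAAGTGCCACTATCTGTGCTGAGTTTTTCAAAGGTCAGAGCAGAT
TAF11L3, chr5:17518117-17518416, plus strand: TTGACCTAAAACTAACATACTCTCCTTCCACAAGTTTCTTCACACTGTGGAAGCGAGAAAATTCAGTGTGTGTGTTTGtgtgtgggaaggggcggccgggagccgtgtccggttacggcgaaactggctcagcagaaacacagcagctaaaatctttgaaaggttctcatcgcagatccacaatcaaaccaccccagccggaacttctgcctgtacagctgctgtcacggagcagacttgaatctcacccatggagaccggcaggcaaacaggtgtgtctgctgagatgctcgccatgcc
ENO1, chr1:8878637-8878936, minus strand: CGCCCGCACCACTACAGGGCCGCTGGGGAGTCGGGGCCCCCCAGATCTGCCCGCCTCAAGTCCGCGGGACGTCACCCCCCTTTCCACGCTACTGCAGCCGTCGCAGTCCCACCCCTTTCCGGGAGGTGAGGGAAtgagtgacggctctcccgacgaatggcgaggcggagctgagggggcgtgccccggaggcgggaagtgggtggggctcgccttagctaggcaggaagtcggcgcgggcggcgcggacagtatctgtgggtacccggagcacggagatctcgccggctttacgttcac
NT5C3A, chr7:33062727-33063026, minus strand: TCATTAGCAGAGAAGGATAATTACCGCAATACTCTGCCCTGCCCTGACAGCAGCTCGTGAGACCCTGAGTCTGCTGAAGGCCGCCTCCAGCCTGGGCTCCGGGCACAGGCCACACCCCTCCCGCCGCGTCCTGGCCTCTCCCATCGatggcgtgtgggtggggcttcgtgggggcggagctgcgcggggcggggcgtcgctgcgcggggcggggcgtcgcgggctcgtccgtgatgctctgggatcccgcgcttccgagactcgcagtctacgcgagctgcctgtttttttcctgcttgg
ENO1 peaks covered 234 of the bases of the FAM27E4 window, 300 of those of FAM230E and 78 of those of TAF11L3. HDAC1 peaks covered 134 bases of the ENO1 promoter and 146 of the NT5C3A promoter. The windows differed in base composition: the dinucleotide CG, which reads the same on both strands, occurred 29 times in FAM27E4, 1 time in FAM230E, 12 times in TAF11L3, 32 times in ENO1 and 30 times in NT5C3A. Of all protein-coding promoter windows, 98% held at least 1 CG.

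Most ENO1 regions were also HDAC1 regions, whereas most HDAC1 regions were not ENO1 regions. HDAC1 was also present in 638 of the 768 ENO1 regions, or 83.1% (95% Wilson interval 80.3 to 85.6). ENO1 was present in 643 of the 3089 HDAC1 regions, or 20.8% (19.4 to 22.3). The 2 shares rest on lists of unequal length: with each list held to its strongest 1189 peaks by fold, they became 63.1% of ENO1 regions and 53.1% of HDAC1 regions, so that most HDAC1 regions then held ENO1. Taking every peak of ENO1 replicate 1, without ENO1 replicate 2, 54.6% overlapped HDAC1, and without HDAC1 replicate 2 the share of HDAC1 regions was 12.1%. All intervals cover counting error only, and neighbouring regions are not independent: 221 of the 637 shared regions lay within 10 kb of another.

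The targets met far from genes and parted at gene ends. Over 50 kb from any protein-coding gene, 476 of 570 ENO1 regions overlapped HDAC1 (83.5%), and 479 of 942 HDAC1 regions overlapped ENO1 (50.8%, 47.7 to 54). Nearer than that, 162 of 198 ENO1 regions overlapped HDAC1 (81.8%), but 164 of 2147 HDAC1 regions overlapped ENO1 (7.64%, 6.59 to 8.84). Within 1 kb of an annotated gene end, 12 of 15 ENO1 regions overlapped HDAC1, against 12 of 1271 HDAC1 regions that overlapped ENO1 (0.944%, 0.541 to 1.64). The share of ENO1 regions with HDAC1 was thus between 80% and 83.7% in every context, while the share of HDAC1 regions with ENO1 ran from 0.944% at gene ends, over 14.5% inside genes and 21.2% in the rest of the first 50 kb, to 50.8% beyond.

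**Figure D1:**
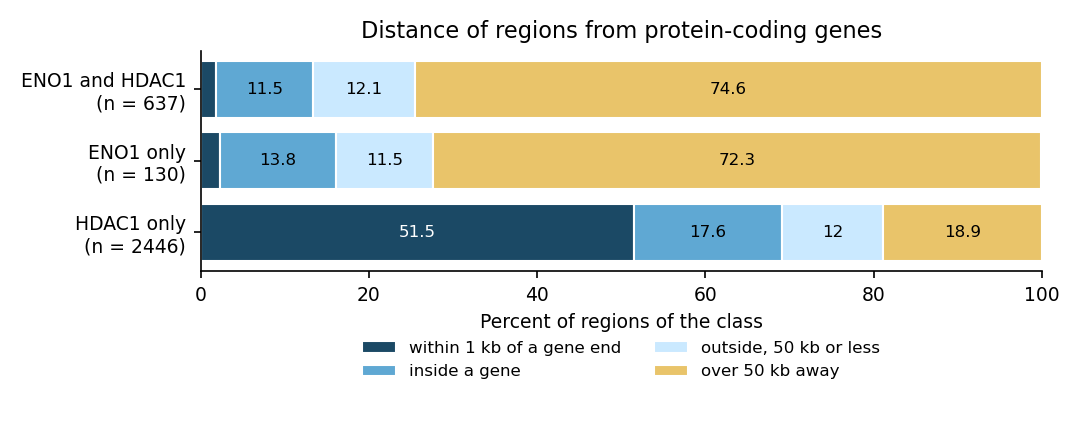
Percent of regions of each class (horizontal axis) in 4 classes of distance from protein-coding genes, for regions shared by ENO1 and HDAC1, of ENO1 only and of HDAC1 only. Regions over 50 kb away made up 74.6% of the shared, 72.3% of the ENO1-only and 18.9% of the HDAC1-only regions, and gene ends 1.88%, 2.31% and 51.5%.

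Of the 637 shared regions, 475 (74.6%, 71 to 77.8) lay over 50 kb from a protein-coding gene, as did 94 of the 130 ENO1-only regions (72.3%, 64.1 to 79.3). The HDAC1-only regions lay there in 463 of 2446 cases (18.9%, 17.4 to 20.5) and at gene ends in 1259 cases (51.5%). With lists of equal length the far shares were 78% for shared and 37.1% for HDAC1-only regions. The same contrast appeared library by library, before any merging of replicates. In the ENO1 libraries 66.5% and 75.9% of peaks lay over 50 kb from genes, against 25.4% and 35.1% in the HDAC1 libraries. Peaks at gene ends made up 2.2% and 1.68% in the ENO1 libraries, against 41% and 34.7% in the HDAC1 libraries. In neither measure did the groups overlap. ENO1 libraries averaged 71.2% ± 6.71 far peaks and HDAC1 libraries 30.2% ± 6.87 (SD, n = 2 each), a difference of 41 percentage points that was larger than the spread between replicates. At gene ends ENO1 libraries averaged 1.94% ± 0.365 and HDAC1 libraries 37.8% ± 4.48 (SD, n = 2 each), a difference of -35.9 points. A two-sided exact permutation test gave p = 0.333 for each, which is the smallest p that 2 against 2 libraries allow. With lists of equal length the differences were 18.9 and -24.4 points.

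HDAC1 regions of like fold differed between contexts in how often they held ENO1. The fold enrichment is the authors' ratio of a peak's signal over the peak caller's background in its own library, and the lower of both replicates was used to sort regions. At an HDAC1 fold of 6 to 8, 124 of 205 far regions held an ENO1 region (60.5%, 53.7 to 66.9). At the same fold, 35 of 83 regions inside genes or within 50 kb of them did (42.2%, 32.1 to 52.9), and 1 of 146 at gene ends did (0.685%, 0.121 to 3.78). At a fold of 5 to 6 the shares were 33.7% far, 15.7% inside or within 50 kb and 1.01% at gene ends. The share rose with HDAC1 fold in far and other near regions, to 130 of 151 far regions (86.1%) and 28 of 36 other near regions (77.8%) at a fold of 10 or more. The order was broken among far regions below a fold of 4, of which 74 of 153 held ENO1 (48.4%), against 22.7% at a fold of 4 to 5. At gene ends HDAC1 folds of 10 or more were rare, with 3 regions, and 2 of these held ENO1.

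**Figure D2:**
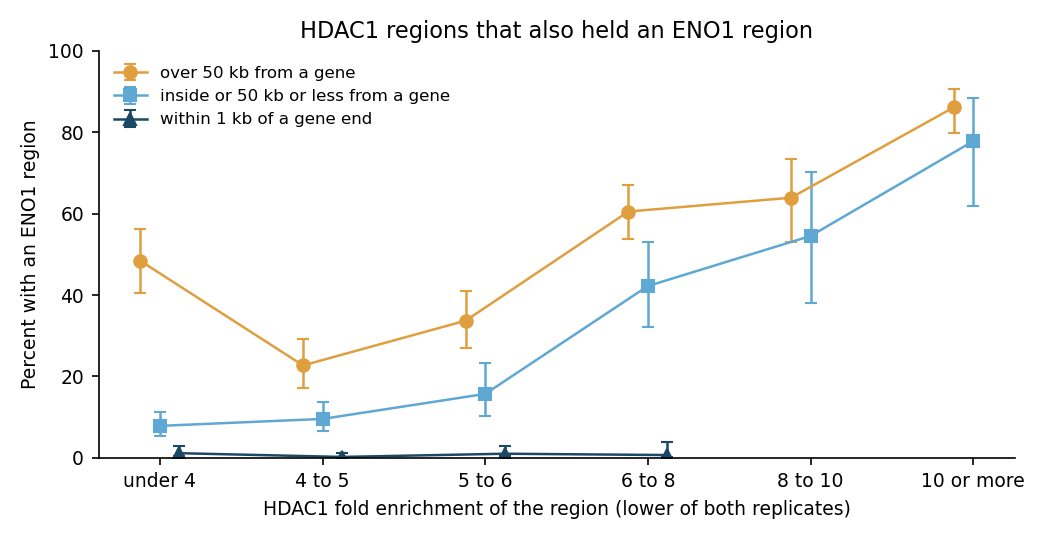
Percent of HDAC1 regions that also held an ENO1 region (vertical axis) against the HDAC1 fold enrichment of the region, for far regions, other near regions and gene ends; bars are 95% Wilson intervals and bins under 20 regions are not drawn. Gene-end regions stayed near 1% or below at folds at which far regions reached 60.5%.

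Seen from the strong end of each list, the overlap was close to complete on the ENO1 side. Of the 100 strongest ENO1 regions 99 overlapped HDAC1, and 81 of these 100 lay far from genes. Of the 100 strongest HDAC1 regions 88 overlapped ENO1, and 79 of the 100 lay far from genes. The HDAC1 share then dropped to 313 of the strongest 500 and 423 of the strongest 1000. Among ENO1 regions near genes, 30 of 30 with a fold of 6 to 8, 21 of 21 with a fold of 8 to 10 and 22 of 22 with a fold of 10 or more overlapped HDAC1, whereas 28 of 48 with a fold under 4 did (58.3%, 44.3 to 71.2). Far from genes the weakest ENO1 regions did not stand out in this way. There, 69 of 83 with a fold under 4 overlapped HDAC1 (83.1%, 73.7 to 89.7). The far share was 65.4% at a fold of 4 to 5, 76.1% at 5 to 6 and 98.9% at 10 or more.

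Shared regions stood high in both lists. They had to hold a peak in every ENO1 and HDAC1 library and were given the strongest peak of each, so class and strength are not independent. Their median fold was 7.33 and 6.59 in the ENO1 libraries and 7.26 and 7.26 in the HDAC1 libraries. Set within its own list, the median shared region stood above 70.8% and 63.2% of all ENO1 peaks, and above 89% and 85.9% of all HDAC1 peaks. Folds of different libraries are not on 1 scale, so between classes only such places within a list were compared. Shared regions at gene ends stood lower, above 42.9% and 36.3% of ENO1 peaks and above 69.3% and 69.4% of HDAC1 peaks. HDAC1-only regions stood above 59.9% and 47.7% of HDAC1 peaks, and ENO1-only regions above 40.1% and 35.4% of ENO1 peaks. Merged shared regions had a median width of 718 bp, ENO1-only regions 507 bp and HDAC1-only regions 639 bp.

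Within shared regions, the order of ENO1 folds followed the order of HDAC1 folds. Over the 475 far regions, Spearman's rho between an ENO1 and an HDAC1 library was 0.914 to 0.918 in the 4 library pairs. In the same regions it was 0.903 between the ENO1 replicates and 0.935 between the HDAC1 replicates. Over the 162 near regions the 4 pairs gave 0.898 to 0.913, the ENO1 replicates 0.869 and the HDAC1 replicates 0.943. In both sets the agreement of fold ranks between targets lay between that of the ENO1 replicates and that of the HDAC1 replicates. Ranked by -log10 q in place of fold, the far pairs gave 0.901 to 0.910, below the ENO1 replicates (0.917) and the HDAC1 replicates (0.932). The near pairs then gave 0.832 to 0.855, against 0.854 between ENO1 replicates and 0.944 between HDAC1 replicates. Under this ranking the agreement between targets thus did not lie clearly between that of the replicates in either set. Over the 12 gene-end regions, ranked by fold, the 4 pairs ranged from 0.769 to 0.909, against 0.860 between ENO1 replicates and 0.958 between HDAC1 replicates. Ranked by -log10 q they ranged from 0.483 to 0.720, against 0.497 and 0.916. These are correlations across regions of the same libraries, which share sequence and mappability, and regions are not independent replicates. With lists of equal length rho was 0.851 far and 0.778 near.

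**Figure D3:**
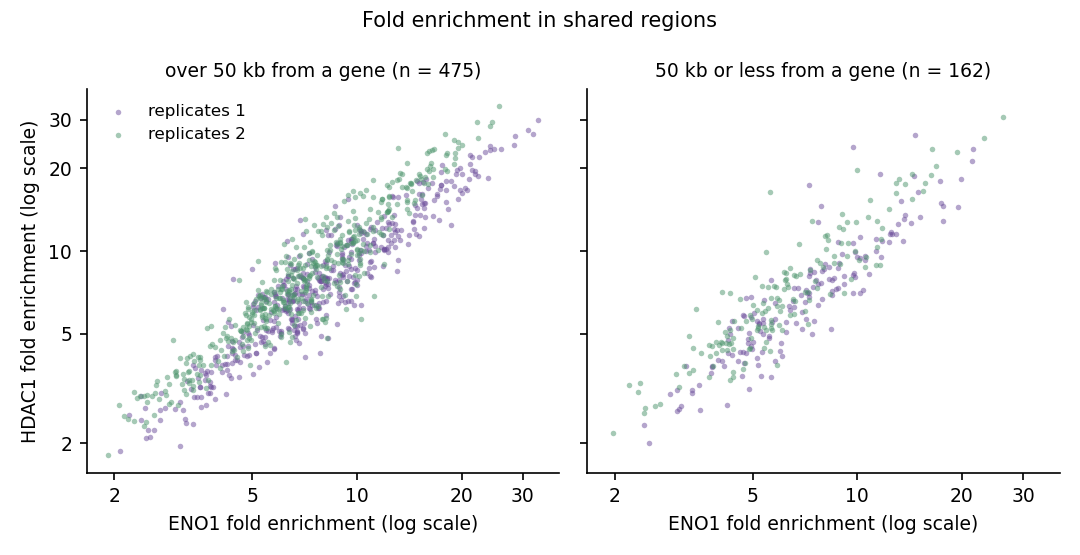
HDAC1 fold enrichment (vertical, log scale) against ENO1 fold enrichment (horizontal, log scale) of each shared region, with same-numbered libraries plotted against each other, far from genes (475 regions, left) and near genes (162 regions, right). Points run along 1 diagonal band in both panels, with rho of 0.914 to 0.918 far and 0.898 to 0.913 near over all 4 library pairs.

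The summits, the positions of highest signal in a peak, also lay together. In far shared regions the median distance between an ENO1 and an HDAC1 summit was 20 to 24 bp in the 4 library pairs, against 21 bp between ENO1 replicates and 21 bp between HDAC1 replicates. In near shared regions it was 23.5 to 33 bp in the 4 pairs, against 36 bp between ENO1 replicates and 28 bp between HDAC1 replicates. Summits of the 2 targets lay within 50 bp of each other in 69.9% to 71.6% of far and 60.5% to 64.8% of near regions. Summits of the 2 targets were thus about as close as those of replicates. Regions of 1 target only had looser summits, but the classes were themselves set by which libraries had a peak. ENO1-only regions had a median of 45.5 bp far and 118 bp near between ENO1 replicates, with a rho between them of 0.742 and 0.816. HDAC1-only regions had 54 bp far and 89 bp near between HDAC1 replicates, with a rho of 0.734 and 0.701.

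**Figure D4:**
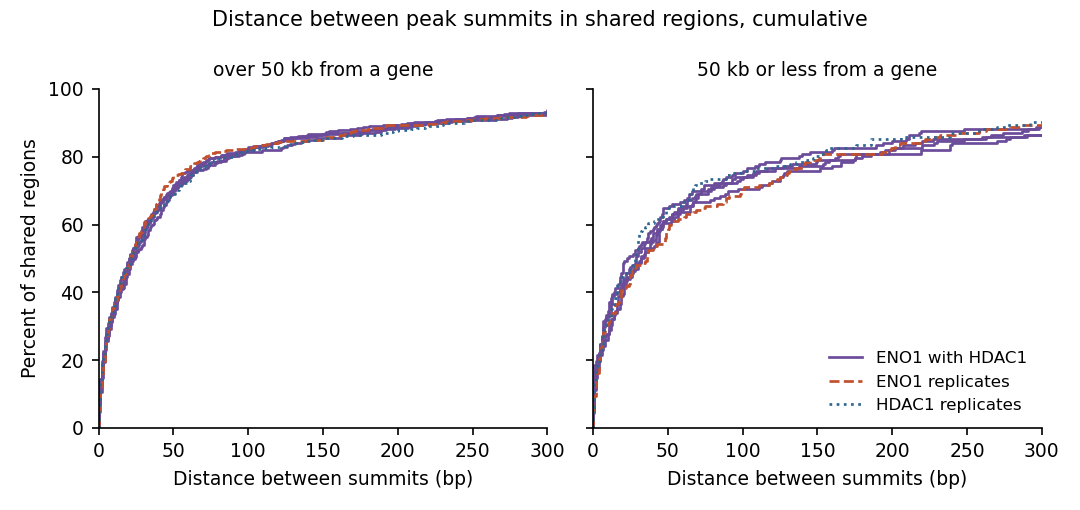
Cumulative percent of shared regions (vertical axis) against the distance between summits in bp (horizontal axis, drawn to 300 bp), for the 4 ENO1 and HDAC1 library pairs and for the replicates of each target, far from genes (left) and near genes (right). The lines between targets run among those between replicates, with medians of 20 to 24 bp far and 23.5 to 33 bp near.

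The H4K12la libraries showed the same order in these regions. Of the shared regions, 427 of 637 (67%) held H4K12la in both replicates, 65.5% of far and 71.6% of near ones. The share was 9 of 130 in ENO1-only regions (6.92%) and 814 of 2446 in HDAC1-only regions (33.3%). In the far shared regions with a peak in all 6 libraries (312), rho was 0.937 to 0.939 between ENO1 and HDAC1, 0.919 to 0.922 between ENO1 and H4K12la and 0.935 to 0.944 between HDAC1 and H4K12la. Median summit distances there were 17 to 25 bp, 21.5 to 25 bp and 18.5 to 24 bp in the same order. In the 116 near ones, rho was 0.901 to 0.918 between ENO1 and HDAC1, against 0.856 to 0.877 between ENO1 and H4K12la. The close agreement between ENO1 and HDAC1 was thus also present, at nearly the same size, with the H4K12la antibody. A control library was not analysed here, so whether these regions carry signal without a target antibody was not tested.

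Many shared regions lay in long stretches without protein-coding genes. In all, 301 of the 637 shared regions (47.3%) lay in the longest stretch without a protein-coding gene on their chromosome, against 53 of 130 ENO1-only regions (40.8%) and 240 of 2446 HDAC1-only regions (9.81%). These are shares of all regions of a class, near ones included. Far regions numbered 475, 94 and 463 in the same order, so the contrast between classes partly restates their far shares. The stretch on chromosome 1 between LINC02798 and H3-7 (chr1:121463130-143902385), which spans the centromere, held 52 shared, 13 ENO1-only and 35 HDAC1-only regions. That on chromosome 10 between ZNF37A and ZNF33B held 51 shared, 1 ENO1-only and 30 HDAC1-only regions. On chromosome 18 the stretch held 0 shared and 2 HDAC1-only regions, and on chromosomes 2, 4, 13, 14, 15, 21, 22 and X the longest stretch held none. In all, those chromosomes held 19, 47, 4, 3, 4, 28, 23 and 4 shared regions in the same order. Each stretch was picked by length alone, so the stretches of different chromosomes need not be alike in sequence. The sources used here do not give how reads that match several repeats were placed, and the part of this in these counts was not tested.

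The strongest shared region of all lay at chr17:25920036-25920493, 1374 kb from WSB1. It had a fold of 33.2 and 25.7 in the ENO1 libraries and 29.8 and 33.5 in the HDAC1 libraries, and its 4 summits lay within 14 bp. It held the highest peak of ENO1 replicate 1 and of both HDAC1 replicates. The second, at chr3:93470362-93470870 and 402 kb from PROS1, had 31 and 24.4 in the ENO1 libraries and 27.5 and 29.5 in the HDAC1 libraries, with summits within 4 bp. Of the 10 strongest far regions, 5 lay in the stretch of chromosome 17 between KCNJ18 and WSB1, and all 10 also held H4K12la in both replicates. Their ENO1 folds ranged from 17.9 to 33.2 and their HDAC1 folds from 22 to 33.5.

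Near genes, shared regions were few and mostly away from gene starts: 12 lay at gene ends, 73 inside genes and 77 in the rest of the first 50 kb. Chromosome ends held many of them, since 75 of the 162 near shared regions (46.3%) lay within 3 Mb of one, against 12 of 36 near ENO1-only regions (33.3%) and 238 of 1983 near HDAC1-only regions (12%). The right end of a chromosome was taken as the end of its last annotated gene. Of the 75, 11 lay together inside the single gene TTC34 on chromosome 1, so they are not independent. The strongest near shared region, at chr22:50807705-50808471, lay 24.1 kb from RABL2B, a small GTPase gene of the cilium. Its fold was 21.6 and 19.4 in the ENO1 libraries and 23.4 and 22.9 in the HDAC1 libraries, with 4 summits within 22 bp. Beside the receptor gene IL9R (chrX:156029998-156030746) the fold was 21.4 and 16.4 in the ENO1 libraries and 21.2 and 23.5 in the HDAC1 libraries. Inside ACSL3, which encodes an acyl-CoA synthetase of lipid droplets, the region chr2:222866190-222866896 had 14.7 and 26.2 in the ENO1 libraries and 26.4 and 30.7 in the HDAC1 libraries. The folds of the ENO1 replicates stood apart there, replicate 1 being the low one, though folds of different libraries are not on 1 scale. The region 1.69 kb from FRG2C (chr3:75668862-75669656), which overlaps the pseudogene DUX4L26, had 19.9 and 16.9 in the ENO1 libraries and 18.3 and 20.3 in the HDAC1 libraries. All 10 strongest near regions also held H4K12la.

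**Figure D5:**
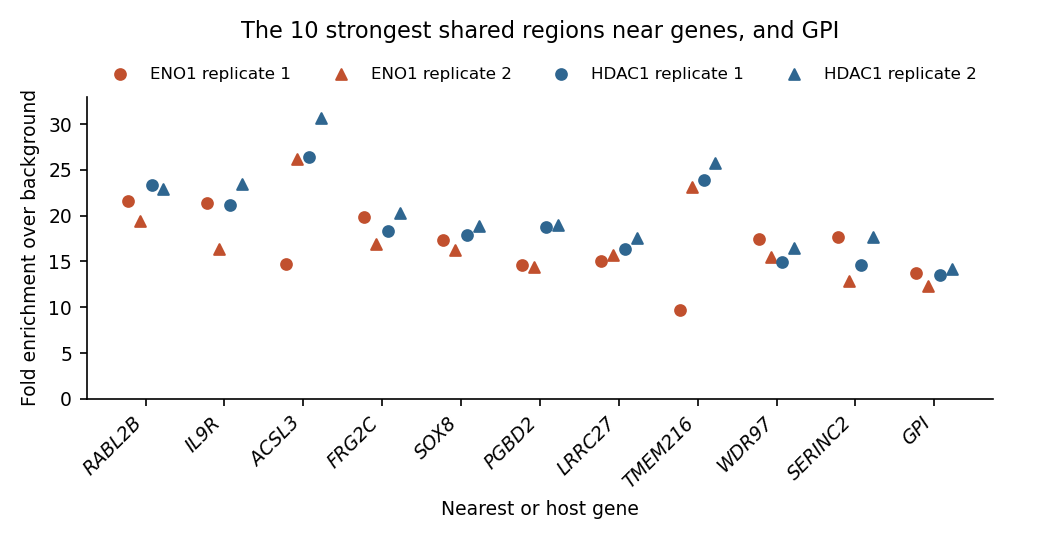
Fold enrichment over each library's own background (vertical axis) of the 10 strongest shared regions near genes and of the region inside GPI, named by host or nearest gene; points are the 2 ENO1 and 2 HDAC1 libraries. ENO1 replicate 1 was the lowest point at TMEM216 (9.72) and at ACSL3 (14.7), and the 4 points at GPI lay between 12.3 and 14.2. Folds of different libraries are not on 1 scale.

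The 73 regions inside genes fell in 61 genes. TTC34 held 11 of them, PTPRN2 and RPH3AL 2 each, and the other genes 1 each. Counting gene bodies with 1 kb on either side, 74 of 19866 protein-coding genes (0.372%) held a shared region and 2046 (10.3%) an HDAC1-only region. Among 25 genes of glycolysis and lactate, 1 held a shared region and 5 an HDAC1-only region. The gene with the shared region was GPI, which encodes the glycolytic phosphoglucose isomerase. Its shared region (chr19:34391261-34392700) lay inside the gene, with a fold of 13.7 and 12.3 in the ENO1 libraries and 13.5 and 14.2 in the HDAC1 libraries. At the ends of GPI HDAC1 had peaks with a fold of 7.45 and 5.71 and H4K12la had peaks of 3.03 and 3.35, while ENO1 had none.

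At gene ends, ENO1 was found in both replicates at 13 protein-coding genes (0.0654% of 19866) and HDAC1 at 1626 (8.18%). Of the 13 ENO1 genes, 11 also had HDAC1 in both replicates (0.0554% of all genes), and the other 2, TAF11L7 and LOC101929627, had it in replicate 1 only. Of the 11, 6 also had H4K12la in both replicates. The count of 11 was 3 with lists of equal length, 7 with an overlap of 50% of the shorter peak, 5 with a window of 500 bp, 22 without ENO1 replicate 2 and 70 with all gene types.

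TMEM216, which encodes a protein of the ciliary transition zone, had the strongest HDAC1 peaks among these 13 genes. Its region (chr11:61391246-61391975) lay 0.612 kb outside the gene, with a fold of 9.72 and 23.1 in the ENO1 libraries and 23.9 and 25.7 in the HDAC1 libraries. The fold was far lower in ENO1 replicate 1 than in replicate 2 there, though folds of different libraries are not on 1 scale. OR2T1, an olfactory receptor gene, had 10.2 and 8.85 in the ENO1 libraries and 11.2 and 12.2 in the HDAC1 libraries. CCDC200 had 10.5 and 8.57 in the ENO1 libraries and 9.25 and 9.56 in the HDAC1 libraries. The remaining genes had ENO1 folds of 3.03 to 5.95. They include 3 TAF11-like genes on chromosome 5, the deubiquitinase gene USP17L11 and NPIPB5, members of families with near-identical copies, so their reads may belong to another copy. WDR81, a gene of endosomal trafficking, had ENO1 folds of 5.18 and 4.38. It had a shared region beyond its end at chr17:1739200-1740660 and an HDAC1-only region elsewhere at its ends.

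Measured against listed gene starts, the targets also parted. Of 15843 protein-coding genes with a promoter window, 1 had ENO1 in both replicates (0.00631%), TAF11L3, and 1229 had HDAC1 (7.76%). By library, ENO1 peaks touched the promoter windows of 7 and 4 genes, and HDAC1 peaks those of 2225 and 1523 genes. At TMEM216, OR2T1 and CCDC200 the ENO1 summit lay 1293, 5533 and 866 bp from the nearest listed start. In the 11 shared gene-end regions on chromosomes of the promoter table, no ENO1 or HDAC1 summit of replicate 1 lay within 250 bp of a listed start, the nearest being 626 bp for ENO1 and 625 bp for HDAC1, both at TAF11L3. Of 1220 HDAC1-only gene-end regions, 748 (61.3%) had the HDAC1 summit within 250 bp of a start, with a median of 198 bp. The promoter table is not complete, which bears on the distances of the multicopy genes. It covered 79.7% of protein-coding genes and no start on chromosome 8. The ENO1 genes LOC101929601, LOC101929627 and LOC124902048 lie on that chromosome, so their starts were not assessed. Protein-coding promoter windows with HDAC1 had a median of 26 CG and 64.7% G or C, the others 20 CG and 62%.

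HDAC1 without ENO1 marked the ends of many protein-coding genes. Of the HDAC1-only regions, 2102 of 2446 (85.9%) held no ENO1 peak in either replicate, and near genes 1874 of 1983 (94.5%) held none. Of 15 gene lists, 13 had ENO1 at the ends of 0 members, which says little beside the 0.0654% of all genes with ENO1 there. Multicopy families had it at 4 of 39 genes and olfactory receptors at 1 of 389, which is OR2T1. Of 27 genes induced by unfolded proteins or heat shock, 9 had HDAC1 (33.3%, against 8.18% of all genes). Among them were the endoplasmic reticulum disulfide isomerase gene PDIA4, with HDAC1 folds of 7.18 and 8.96, and the neighbouring chaperonin genes HSPD1 and HSPE1, which share peaks of 7.73 and 6.63. HSPH1, a co-chaperone gene, had 7.68 and 6.44. Of 39 splicing factor genes 12 had HDAC1 (30.8%), with SF3B6 at 7.46 and 8.13 and HNRNPD at 8.01 and 7.21. Of 17 Wnt targets 7 had it (41.2%), among them the Wnt inhibitor gene DKK1 (4.49 and 4.91) and the stem cell receptor gene LGR5 (4.44 and 3.7).

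The shares in the next lists are also to be read beside the 8.18% of all protein-coding genes with HDAC1 at an end, and none was tested. Of 32 genes that encode HDAC1 complexes 7 had it (21.9%), led by the Sin3 subunit gene ARID4B (8.43 and 5.94) and the NuRD subunit gene GATAD2B (5.91 and 5.97). Of 30 genes of histone acylation enzymes 4 had it (13.3%), HDAC6 among them (7.68 and 4.99). Cell cycle genes had it in 6 of 30 cases (20%), with the kinase gene CDK2 at 7.23 and 6.28. Hypoxia genes had it in 4 of 15 cases (26.7%), with ANKRD37 at 6.68 and 5.67 and HIF1A at 4.62 and 5.25. Immediate early genes had it in 3 of 17 cases (17.6%): EGR1 (4.35 and 4.21), JUN (4.3 and 4.08) and MYC (4.54 and 3.27). Replication-dependent histone genes had it in 16 of 74 cases (21.6%), where several genes share a peak. None of the genes named from these lists had an ENO1 peak at an end in either replicate.

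The genes of the targets themselves behaved differently. ENO1 had HDAC1 peaks of 4.51 and 4.9 over its own promoter and no ENO1 or H4K12la peak at its ends. ALDOA, the aldolase gene, had HDAC1 folds of 3.69 and 2.79, and with GPI and ENO1 made up the 3 of 25 glycolysis genes with HDAC1 at an end (12%, beside 8.18% of all genes). HDAC1 itself had no peak of either target at its ends. Secreted liver proteins had HDAC1 at 0 of 25 genes and liver transcription factors at 1 of 20, CEBPB (3.65 and 3.17), beside 8.18% of all protein-coding genes. Neither target was at an end of any of 14 hepatocyte markers or 6 markers of other cell types. With 8.18% of all genes for HDAC1 and 0.0654% for ENO1, lists of this size say nothing particular about liver genes. Peaks of these proteins do not measure expression, so they do not check the cell type.

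Some regions overlapped gene families outside the protein-coding set, and the shares of the classes were not tested against each other. DUX4-like pseudogenes, relatives of the DUX4 gene of the repeat arrays near the ends of chromosomes 4 and 10, overlapped 19 of 637 shared regions (2.98%, 1.92 to 4.61), 3 of 130 ENO1-only regions (2.31%) and 0 of 2446 HDAC1-only regions (upper limit of the 95% Wilson interval 0.157%). The shared ones involved 17 of 51 annotated pseudogenes. At DUX4L9 the fold was 10.5 and 10.6 in the ENO1 libraries and 9.58 and 9.5 in the HDAC1 libraries. At DUX4L12, among the weakest, it was 2.6 and 3.05 in the ENO1 libraries and 2.23 and 2.75 in the HDAC1 libraries. The 3 ENO1-only regions, at DUX4L28, DUX4L24 and DUX4L14, each had an HDAC1 peak of replicate 1 (2.78, 2.87 and 2.61) and none of replicate 2. FAM230 long non-coding RNA genes overlapped 6 shared regions (0.942%, 0.432 to 2.04), 0 ENO1-only and 2 HDAC1-only regions (0.0818%, 0.0224 to 0.298). Nuclear copies of mitochondrial sequence overlapped 6 shared (0.942%), 1 ENO1-only (0.769%) and 10 HDAC1-only regions (0.409%, 0.222 to 0.751), with overlapping intervals. Genes for tRNA overlapped 0 shared and 0 ENO1-only regions and 18 HDAC1-only regions (0.736%, 0.466 to 1.16). Genes for snRNA overlapped 0, 0 and 9 regions in the same order (0.368% of HDAC1-only regions). For both, 0 of 637 shared regions leaves an upper limit of 0.599%, and the difference from HDAC1-only regions was not tested.

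Many regions of 1 target only had a peak of the other target in 1 replicate. Of the 130 ENO1-only regions, 90 had an HDAC1 peak of 1 replicate, 2 had separate HDAC1 peaks of both and 38 (29.2%, 22.1 to 37.6) had none. Far from genes, 26 of 94 ENO1-only regions had no HDAC1 peak. Of the 463 far HDAC1-only regions, 228 (49.2%) had no ENO1 peak and 233 (50.3%) had one in 1 replicate. Of the 1983 near ones, 109 (5.5%) had an ENO1 peak of 1 replicate. The strongest ENO1-only region, chr7:59163647-59164105, had ENO1 folds of 12.9 and 12.8, and HDAC1 replicate 1 had a peak of 12 there. Of the 10 strongest ENO1-only regions, 9 had an HDAC1 peak of 1 replicate, the exception being chrX:140723422-140723853, 218 kb from SOX3, with ENO1 folds of 8.29 and 8.06. Of the 10 strongest HDAC1-only regions, 9 had an ENO1 peak of 1 replicate. The exception, chr15:101980826-101981187, 161 kb from OR4F15, had HDAC1 folds of 18.1 and 19.7. The strongest, chr17:25383671-25384009, had HDAC1 folds of 21.2 and 24, and ENO1 replicate 1 had 17.5.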

How the data were processed

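CUT&Tag libraries of HepG2 for ENO1 and HDAC1 were compared, 2 of each, grouped and numbered by their titles. The submitters' processing notes name hg38 as the build and list FastQC, Bowtie2, MACS2 and deepTools, while the sources used here give no versions, settings or control library. All deposited files are peak lists called per library. In the deposited lists the fold is a ratio over background within a library and is not scaled between libraries. The deposited lists also give -log10 p and -log10 q values, a score and the summit offset. The lowest -log10 q was 2 to 2.09, so weaker signal is not listed.

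Peaks on 24 chromosomes were used, since genes and gene distances exist there. Genes came from the RefSeq table of GRCh38.p14 (19866 protein-coding; 718 entries placed on other sequences were left out). Regions, contexts, summit distances and Spearman's rho were computed in Python 3.11.15 with numpy 2.4.6, pandas 2.3.3 and scipy 1.17.1 and checked on simulated data. Library percentages were compared by a two-sided exact permutation test. Its p is the share of the 6 splits of these libraries with a difference at least as large, and it does not measure their spread. Members, gene lists and tests were chosen with earlier results of these data known. Genes and regions were named by a rule: every gene with ENO1 at an end, the 10 strongest regions of each class (shared ones near and far), up to 4 members of each of 15 lists by HDAC1 fold, ENO1 and HDAC1. Promoter windows, gene families and the H4K12la comparison were added after seeing the data, and DUX4-like genes, GPI's inner region and NT5C3A were named after their values were seen. Alternatives changed the q value, list length, overlap, distances, gene types, ranking and libraries. A result that rests on a withheld item is not reported here.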

Additional observations from a re-analysis of the deposited data

Results flagged for a closer look

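Peaks outside the 24 chromosomes, which none of the comparisons used, were present in every library. On unplaced sequences and the mitochondrial genome ENO1 replicate 1 had 226 peaks, ENO1 replicate 2 had 206, HDAC1 replicate 1 had 252 and HDAC1 replicate 2 had 235. Unplaced sequences alone held 12% and 14.4% of all ENO1 peaks, against 4.11% and 4.79% of all HDAC1 peaks. There, 143 of 157 ENO1 regions overlapped an HDAC1 region (91.1%, 95% Wilson interval 85.6 to 94.6), and 143 of 197 HDAC1 regions overlapped an ENO1 region (72.6%, 66 to 78.3). Groups of 2 libraries are too small to test for a library that stands apart.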

How the results depend on the processing

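Of 100 alternative values for 10 results, 51 were counted as unchanged and 49 as moved. For the 2 differences between libraries, unchanged meant only that the sign held and p stayed above the significance limit. With 2 libraries a target p cannot fall below that limit, so these counts say nothing about size. They include the falls from 41 to 18.9 points and from -35.9 to -24.4 points with lists of equal length. The statement that most HDAC1 regions held no ENO1 turned round with lists of equal length. No control library or read count was used, so depth could not be weighed, and 2 libraries a target limit every comparison between targets. The cause of the moves was not tested, except that shorter lists hold fewer regions. The share of ENO1 regions with HDAC1 (83.1%) became 88.4% at a -log10 q of 5 or more and 63.1% with lists of equal length, and 54.6% to 89.5% when 1 library was left out. The share of HDAC1 regions with ENO1 (20.8%) became 24.4% at the stricter q, 53.1% with equal lists, 17% with regions joined within 10 kb (an alternative chosen after seeing the data), and 12.1% to 27.6% without 1 library. The far share of shared regions (74.6%) was 78% with equal lists, 84.6% with far set at 10 kb, 67.2% at 100 kb, 55.7% with all gene types, 70.1% with joined regions and 71.1% to 75.5% without 1 library. The far share of HDAC1-only regions (18.9%) was 37.1%, 26.5%, 15.9%, 12.1% and 16.1% in the same order, and 15% to 27.8% without 1 library. It stayed below that of shared regions in each of these. The median summit distance (23.5 bp) was 20.5 bp at the stricter q, 19.5 bp with equal lists and 22.8 to 28.5 bp without 1 library. Far rank agreement (0.917) was 0.851 with equal lists, 0.913 with all gene types, 0.906 ranked by -log10 q and 0.895 to 0.916 without 1 library. Near rank agreement (0.903) was 0.921 at the stricter q, 0.778 with equal lists, 0.890 with far at 10 kb, 0.910 with all gene types, 0.839 ranked by -log10 q and 0.854 to 0.909 without 1 library. Genes with both targets at an end (11) were 3 with equal lists, 7 with an overlap of 50% of the shorter peak, 5 with a 500 bp window, 70 with all gene types and 11 to 22 without 1 library. The labels do not say whether libraries of the same replicate number were made together. Over 637 shared regions, the correlation between targets of the log2 fold difference of replicate 1 and replicate 2 was 0.0155. Folds are relative to each library's own background, so this value cannot decide whether the libraries were paired. With the replicate block the differences between libraries stayed 41 and -35.9 points, with an exact p of 0.5, the smallest that 2 pairs allow.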

Other observations

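ENO1 peaks of 1 replicate reached the promoter windows of 9 further protein-coding genes, chosen here after their values were seen. At KAT6B, a histone acetyltransferase gene, the ENO1 fold was 4.78 in replicate 1 with none in replicate 2, and the HDAC1 folds were 6.53 and 8.94. At TMEM87B it was 4.85 in ENO1 replicate 1, and the HDAC1 folds were 5.95 and 6.2. PPP1R15B, a gene of the stress response, had 5.14 in ENO1 replicate 2 and HDAC1 folds of 4 and 5.32. CARS2, a mitochondrial cysteinyl-tRNA synthetase gene, had 6.61 in ENO1 replicate 2 and HDAC1 folds of 6.21 and 4.79. At GALNT3 (4.5) and PDE1B (4.9) ENO1 replicate 1 had a peak and neither HDAC1 library did. Over gene ends, 27 genes had ENO1 in 1 replicate only, and 14 of these had HDAC1 in both. FAM86B1, a multicopy gene, was among the strongest HDAC1 genes of the lists, with ENO1 at 5.2 in replicate 2 only and HDAC1 at 13 and 13.5.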
